A study of Mus musculus with 8 samples.

Results

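A set of 10 genes of the Notch pathway, made up of the 4 receptors Notch1, Notch2, Notch3 and Notch4, the 4 ligands Dll1, Dll4, Jag1 and Jag2, and the 2 target genes Hey1 and Hes1, was followed through 4 populations of basal cells of the adult mouse mammary gland. The genes were taken by name, through the Entrez identifiers of the deposited count tables, and make up 10 of the 27164 genes counted. All 10 passed the filter on low counts, which kept 16526 genes for testing. RNA came from cells sorted by flow cytometry as basal and then by Lgr5, a receptor for R-spondins, and Tspan8, a tetraspanin of the cell surface, with 2 libraries for each of the gates Lgr5+T8hi and Lgr5-T8hi (Tspan8 high) and Lgr5+T8- and Lgr5-T8- (Tspan8 negative). In every group the donors were untreated C57BL/6 females aged 10 weeks that carried the Lgr5-GFP-IRES-CreERT2 allele, so no group lacks the allele. Replicates 1 and 2 of each group are batches 1 and 2 of the labels. Whether the 2 libraries of a group came from different animals is not in the labels. The p-values below therefore reflect only how far these libraries scatter, which may be technical.

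Notch receptors are single-pass membrane proteins that are cut when a ligand on a neighbouring cell pulls on them. ADAM proteases and then gamma-secretase release the intracellular domain, which joins the DNA-binding protein Rbpj in the nucleus and switches on genes of the Hes and Hey families of transcriptional repressors. In the mammary gland the pathway is known for its part in the choice between luminal and basal fate, with ligand on basal cells and active receptor mostly in luminal cells. Notch4 and Dll4 are best known from endothelium, and Notch3 from the mural cells of vessels as well as from luminal cells.

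The starts of 4 member genes that passed the test of the Tspan8 gate described further on are shown as sequence, because Notch1, Notch3 and Dll4 were higher in Tspan8hi cells and Dll1 was lower. Each stretch runs from 250 bases before to 50 bases after a start site of RefSeq for GRCm38.p6, 5′ to 3′ on the strand of the gene, and capitals mark the N-box CACNAG, the sequence bound by Hes repressors, on either strand. They lie at chr2:26503773-26504072 on the minus strand for Notch1, at chr17:32166841-32167140 on the minus strand for Notch3, at chr2:119325534-119325833 on the plus strand for Dll4 and at chr17:15376883-15377182 on the minus strand for Dll1, the more upstream of 2 starts listed for that gene.
Notch1: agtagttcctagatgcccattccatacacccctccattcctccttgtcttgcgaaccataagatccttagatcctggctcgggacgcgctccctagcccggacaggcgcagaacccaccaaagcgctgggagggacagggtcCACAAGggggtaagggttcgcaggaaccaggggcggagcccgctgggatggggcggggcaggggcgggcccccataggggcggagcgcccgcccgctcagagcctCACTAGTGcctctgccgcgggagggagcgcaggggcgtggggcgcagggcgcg
Notch3: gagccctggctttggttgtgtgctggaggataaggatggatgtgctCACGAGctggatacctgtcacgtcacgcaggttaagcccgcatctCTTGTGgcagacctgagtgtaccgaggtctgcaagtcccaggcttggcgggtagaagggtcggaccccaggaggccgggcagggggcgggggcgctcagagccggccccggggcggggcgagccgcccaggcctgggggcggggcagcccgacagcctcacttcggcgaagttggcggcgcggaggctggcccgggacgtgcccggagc
Dll4: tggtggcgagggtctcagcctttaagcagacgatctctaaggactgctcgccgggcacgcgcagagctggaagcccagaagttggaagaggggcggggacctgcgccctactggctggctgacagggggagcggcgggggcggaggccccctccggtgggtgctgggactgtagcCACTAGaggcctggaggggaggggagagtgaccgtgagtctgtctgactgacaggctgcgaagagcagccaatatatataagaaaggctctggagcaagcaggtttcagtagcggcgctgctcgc
Dll1: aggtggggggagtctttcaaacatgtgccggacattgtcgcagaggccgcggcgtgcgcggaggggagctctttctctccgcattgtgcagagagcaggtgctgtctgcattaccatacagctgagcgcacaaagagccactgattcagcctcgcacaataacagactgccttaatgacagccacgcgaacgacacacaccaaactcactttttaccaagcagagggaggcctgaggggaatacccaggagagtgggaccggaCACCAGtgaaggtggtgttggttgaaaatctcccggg
The Notch1 stretch held 3 N-boxes, of which the 2 nearest the start site overlap, the Notch3 stretch held 2, and the Dll4 and Dll1 stretches held 1 each. Of the 9 promoters listed for 8 of the members, 5 held an N-box, against 42.5% of the 32851 promoters in the RefSeq table. The core letters of the Rbpj site, TGGGAA, searched on both strands, were in 0 of the 9, against 25.6% of all promoters. These stretches were rich in G and C, at 68.3% for Notch1, 70.0% for Notch3, 63.7% for Dll4 and 56.3% for Dll1, where the median promoter had 52.7%. A match is a description of letters and does not show that a protein binds there. Hes1 and Hey1 had no entry.

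The tables held 24571300 to 38384875 counts per library, and a floor of 3 counts equals 0.0799 to 0.120 CPM (counts scaled to a fixed library size). Levels are given as CPM on library sizes adjusted by the trimmed mean of M-values (TMM), and levels of different genes are compared as CPM per kilobase (kb) of the gene length in the tables. Tspan8 was at 289 and 261 CPM in Lgr5+T8hi and 167 and 150 CPM in Lgr5-T8hi. It was at 10.6 and 6.82 CPM in Lgr5+T8- and 4.36 and 3.16 CPM in Lgr5-T8-. Its level thus differed across the Lgr5 gate too (averaged log2 1.00, edgeR adjusted p = 5.157e-05). Lgr5 was at 174 to 212 CPM in Lgr5+ libraries and at 119 and 129 CPM in Lgr5-T8hi, against 58.3 and 50.5 CPM in Lgr5-T8-, so the 2 Lgr5- gates differed in Lgr5 level (log2 1.18, edgeR adjusted p = 5.684e-05). The basal label was met by a summed level of 10 basal markers of 16512 to 25036 CPM, and no marker of the 8 cell type lists was at 0 in any library. Markers of other cells were present too, at summed levels of 33.8 to 232 CPM for luminal progenitors, 1063 to 2375 CPM for luminal cells in general, 103 to 580 CPM for endothelium and 50.9 to 117 CPM for pericytes. Across the Tspan8 gate 7 of 9 fibroblast, 3 of 8 hormone-sensing luminal and 3 of 8 immune markers were higher in T8hi cells by edgeR at an adjusted p under 0.05. Of all genes tested, 9.13% were higher. In such bulk samples fewer cells of a type and less RNA per cell cannot be told apart.

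Dll1 was by far the most abundant of the 10 per unit of length. Its mean over the 8 libraries was 127 CPM per kb, above 96.7% of the genes tested. Jag2 followed at 46.6, Jag1 at 41.8 and Hes1 at 36.9 CPM per kb, then Notch1 at 16.9 and Hey1 at 9.65. Notch2 at 7.06 and Notch3 at 5.82 CPM per kb lay near the middle of the genes tested, above 54.0% and 49.98% of them. Dll4 at 1.43 and Notch4 at 0.778 CPM per kb were the lowest, above 26.7% and 19.5%. Summed over the class, the 4 ligands came to 188 to 247 CPM per kb in a library and the 4 receptors to 21.4 to 39.4 CPM per kb.

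**Figure D1:**
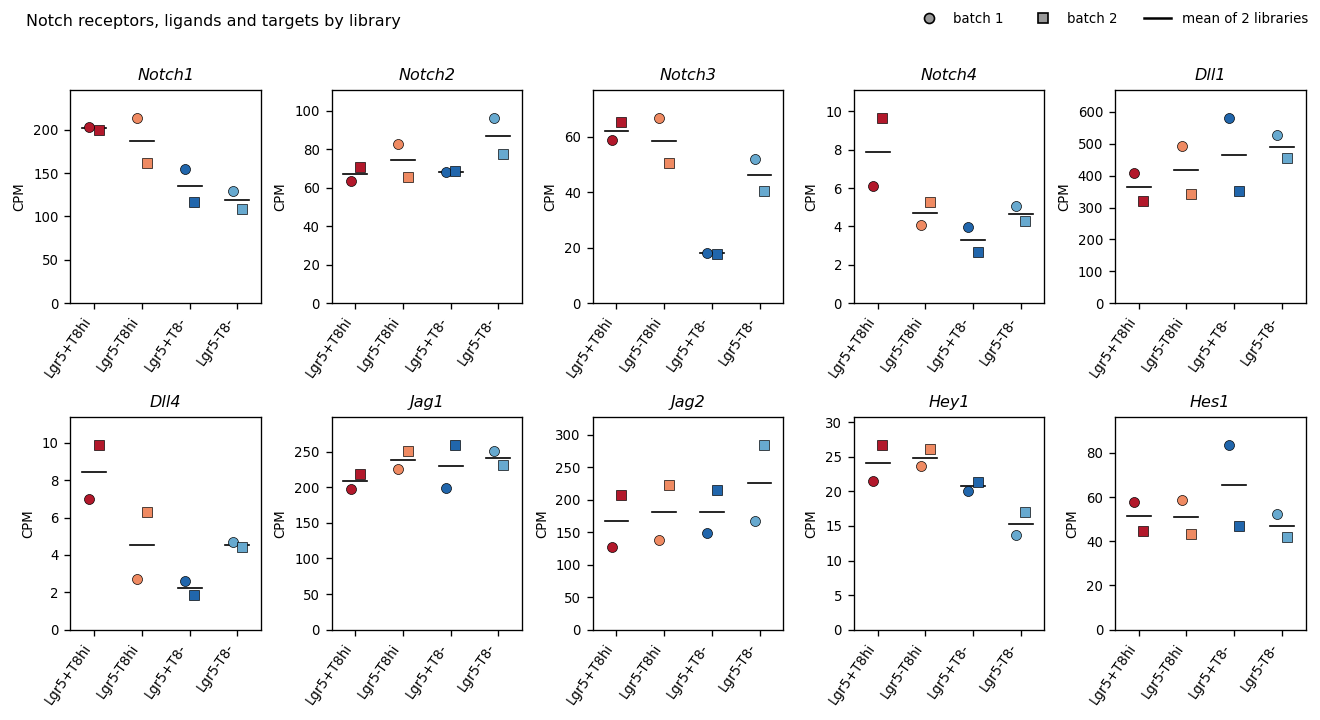
Level of each of the 10 genes in CPM (vertical axes from 0) in the 8 libraries, by group on the horizontal axis, with circles and squares for the 2 batches and a bar for the mean of 2 libraries. The T8hi points of Notch1 and Hey1 all lie above the T8- points, and the Lgr5+T8- points of Notch3, at 18.1 and 17.8 CPM, lie far below the other 6.

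Across the Tspan8 gate, averaged over Lgr5 status, Notch1, Notch3, Dll4 and Hey1 were higher in Tspan8hi cells and Dll1 and Jag2 were lower. The difference was 1.54-fold for Notch1 and 2.09-fold for Notch3, and 1.86-fold for the scarce Dll4. It was 1.37-fold for Hey1 and, downwards, 1.22-fold for Dll1 and 1.17-fold for Jag2. So 6 of the 10 passed an adjusted p of 0.05 in edgeR's quasi-likelihood test, 4 higher and 2 lower. Of all genes tested 14.6% passed, 9.13% higher and 5.52% lower. The 10 were chosen with earlier results of these data known, so counts of members beside all genes, here and below, cannot show an excess. Among 57 other pathway genes tested, 14.04% passed. The median log2 fold change of the 10 was 0.19, beside -0.02 for all genes tested. Without batch in the model 1 of the 10 passed, Notch3. With each library left out in turn, the calls of Notch1, Notch3 and Hey1 held in all 8 fits, and those of Dll1, Dll4 and Jag2 in 2 of 8 each, as given with each gene.

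**Figure D2:**
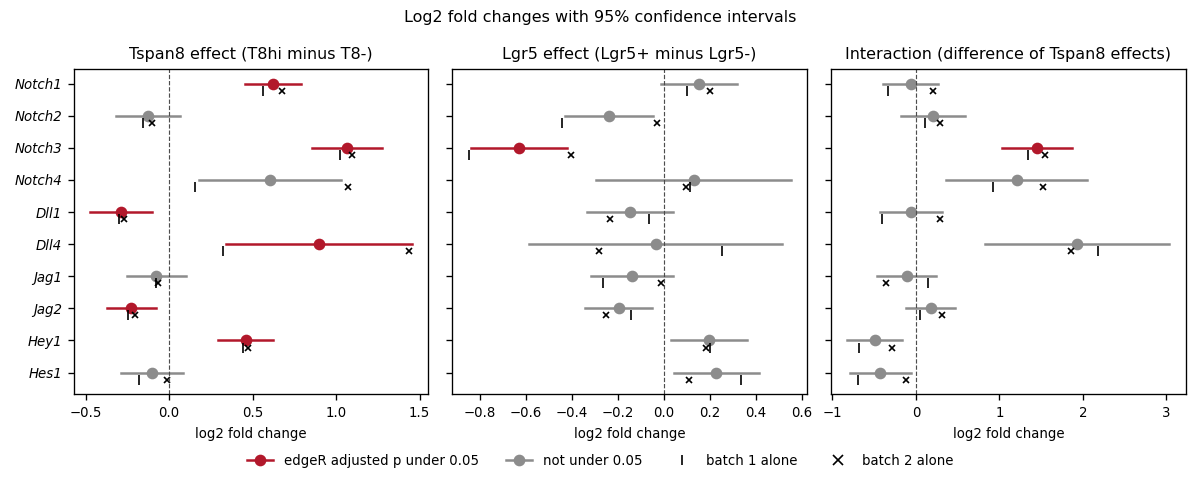
Log2 fold change of each gene (horizontal axes) in 3 panels (Tspan8 gate, Lgr5 gate and their interaction), with dots for the estimate from 8 libraries, bars for the 95% confidence interval, marks for each batch alone and red for an edgeR adjusted p under 0.05. Red marks 6 genes for Tspan8 and Notch3 alone for the Lgr5 effect and the interaction.

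Among the receptors, Notch1 (Entrez 18128, chr2:26457902-26503822 in GRCm38.p6) followed the Tspan8 gate at either Lgr5 status. It is a receptor with a known role in luminal commitment. Its level was 204 and 199 CPM in Lgr5+T8hi and 213 and 162 CPM in Lgr5-T8hi, against 155 and 116 CPM in Lgr5+T8- and 129 and 108 CPM in Lgr5-T8-. All 4 T8hi libraries lay above all 4 T8- libraries, although Lgr5-T8hi replicate 2 was above Lgr5+T8- replicate 1 by little. Such a separation was seen for 2 of the 10 members, Notch1 and Hey1, and for 6.74% of all genes tested. The log2 fold change of Notch1 was 0.62 ± 0.08 (SE, n = 8, edgeR adjusted p = 0.0001895), with 0.56 in batch 1 and 0.68 in batch 2. It was 0.59 within Lgr5+ cells (edgeR adjusted p = 0.00406) and 0.65 within Lgr5- cells (edgeR adjusted p = 0.002577). The first was lost without Lgr5+T8hi replicate 2 (0.1069) or Lgr5+T8- replicate 2 (0.08159), and the second without Lgr5-T8hi replicate 1 (0.06). The 2 did not differ beyond their error (interaction -0.06, 95% interval -0.39 to 0.27, edgeR adjusted p = 0.9346).

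Luminal progenitor markers moved with Notch1 across the same gate. The summed level of the 8 markers was 178 to 232 CPM in T8hi and 33.8 to 67.7 CPM in T8- libraries, and 8 of 8 were higher by the same edgeR test. The 8 general luminal markers were at 1519 to 2375 CPM in T8hi and 1063 to 2108 CPM in T8- libraries, with 7 of 8 higher. Markers of other cells were higher in T8hi as well, 7 of 9 fibroblast, 6 of 8 pericyte and 6 of 12 endothelial, where 9.13% of all genes were. So were 3 of 8 hormone-sensing luminal and 3 of 8 immune markers, and 6 of 10 basal markers were lower, where 5.52% of all genes were. The part of RNA from any of these cells in the Notch1 difference was not tested. The level of Notch1 was 78.4 to 112% of the luminal progenitor sum in T8hi libraries and 190 to 344% in T8- libraries.

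Notch3 (Entrez 18131, chr17:32120820-32166896) stood apart in 1 population, Lgr5+T8-. Its level was 58.8 and 65.2 CPM in Lgr5+T8hi, 66.6 and 50.5 CPM in Lgr5-T8hi and 52.1 and 40.4 CPM in Lgr5-T8-, but 18.1 and 17.8 CPM in Lgr5+T8-. Both Lgr5+T8- libraries lay below the other 6, and Lgr5-T8hi overlapped both Lgr5+T8hi and Lgr5-T8-. Within Lgr5+ cells Notch3 was 3.46-fold higher in T8hi than in T8- (log2 1.79 ± 0.14, SE, edgeR adjusted p = 3.543e-05). Within Lgr5- cells the same difference was 0.34 ± 0.13 on the log2 scale and did not pass (edgeR adjusted p = 0.1792, 95% interval 0.05 to 0.63).

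The 2 differences of Notch3 were set against each other as an interaction of the gates. It was 1.45 ± 0.19 on the log2 scale (SE, n = 8, edgeR adjusted p = 0.003787), with 1.34 in batch 1 and 1.55 in batch 2. Notch3 was 1 of 10 members to pass, where 2.55% of all genes passed, and 5 of 10 were under an unadjusted p of 0.05, where 11.8% of all genes were. The averaged Tspan8 effect of 1.06 ± 0.09 (SE, edgeR adjusted p = 3.839e-05) and the averaged Lgr5 effect of -0.63 ± 0.09 (SE, edgeR adjusted p = 0.001781) both contain that low population. At the T8- gate Notch3 was 2.56-fold lower in Lgr5+ than in Lgr5- cells (log2 -1.36 ± 0.14, SE, edgeR adjusted p = 0.000168), whereas at the T8hi gate the difference was 0.10 (95% interval -0.19 to 0.38, edgeR adjusted p = 0.8574). The Tspan8, Lgr5 and interaction calls of Notch3 held with each of the 8 libraries left out in turn, at edgeR adjusted p from 7.595e-07 to 0.01771. Without batch in the model the Tspan8 call held (edgeR adjusted p = 0.005915) and the other 2 did not (0.0573 and 0.1372).

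Pericyte markers were also lowest in Lgr5+T8-. The 8 markers, which do not include Notch3, summed to 50.9 and 58.4 CPM there and to 79.3 to 117 CPM in the other 6 libraries. In the comparison of Lgr5+T8hi with Lgr5+T8-, 6 of the 8 were higher and 1 had an estimate below 0. Of all genes 9.44% passed there in either direction. In Lgr5+T8- against Lgr5-T8-, 3 of the 8 were lower and 1 had an estimate above 0, where 8.86% of all genes passed. Notch3 equalled 35.7 and 30.5% of the pericyte sum in Lgr5+T8- and 51.0 to 68.3% of it in the other 6 libraries. Markers of other cells moved there as well. The 9 fibroblast markers summed to 356 and 409 CPM in Lgr5+T8- and to 574 to 1264 CPM in the other 6 libraries, and 8 of 9 fibroblast, 11 of 12 endothelial and 8 of 8 luminal progenitor markers were higher in Lgr5+T8hi than in Lgr5+T8- by edgeR. The part of RNA from any of these cells in the Notch3 difference was not tested.

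Notch4 (Entrez 18132, chr17:34564286-34588543), an endothelial receptor, was scarce and highest in Lgr5+T8hi. It was at 6.11 and 9.64 CPM in Lgr5+T8hi, 4.09 and 5.30 CPM in Lgr5-T8hi, 3.97 and 2.67 CPM in Lgr5+T8- and 5.06 and 4.26 CPM in Lgr5-T8-. The 2 Lgr5+T8hi libraries were the highest, the 2 Lgr5+T8- libraries the lowest, and the Lgr5- groups overlapped. Lgr5+T8hi exceeded Lgr5+T8- by 1.21 ± 0.27 (log2, SE, edgeR adjusted p = 0.01981), with 0.62 in batch 1 and 1.83 in batch 2, a call that was lost without Lgr5+T8hi replicate 2 (0.2171) or Lgr5+T8- replicate 2 (0.1809). The averaged Tspan8 effect of 0.60 ± 0.19 missed the threshold (edgeR adjusted p = 0.06241, 95% interval 0.18 to 1.03) and passed with DESeq2 (adjusted p = 0.03995).

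Notch2 (Entrez 18129, chr3:98013538-98150367) passed in none of the comparisons by edgeR with all 8 libraries. It was at 63.3 and 70.9 CPM in Lgr5+T8hi, 82.9 and 65.6 CPM in Lgr5-T8hi, 67.9 and 68.9 CPM in Lgr5+T8- and 96.1 and 77.6 CPM in Lgr5-T8-. The groups overlapped except that both Lgr5-T8- libraries lay above both Lgr5+T8hi and both Lgr5+T8- libraries. Its Tspan8 effect was -0.13 on the log2 scale (95% interval -0.32 to 0.07, edgeR adjusted p = 0.3935) and its Lgr5 effect -0.24 (95% interval -0.43 to -0.05, edgeR adjusted p = 0.1286), which passed without Lgr5-T8- replicate 2 (0.04486). Between Lgr5+T8hi and Lgr5-T8- it was -0.37 (edgeR adjusted p = 0.0608), which passed without replicate 2 of Lgr5+T8hi (0.03525), of Lgr5-T8hi (0.04965) or of Lgr5-T8- (0.02726), and with no filter on low counts (0.04193).

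As shares of their class, the receptor transcripts of Lgr5+T8- cells held less Notch3. Notch3 made up 9.68 ± 1.10% (SD, n = 2) of the summed receptor CPM per kb there, against 21.3 ± 0.895% in Lgr5+T8hi, 21.1 ± 0.308% in Lgr5-T8hi and 21.3 ± 0.768% in Lgr5-T8-. Notch1 was the largest share in every group, at 58.0 ± 2.68%, 56.5 ± 0.786% and 60.3 ± 4.57% in Lgr5+T8hi, Lgr5-T8hi and Lgr5+T8-, and 45.9 ± 0.960% in Lgr5-T8-. Notch2 took 17.4 ± 0.857% and 20.3 ± 0.342% in the T8hi groups and 27.9 ± 3.79% and 30.3 ± 0.248% in the T8- groups. Shares within a sum move together, and no test was made of them.

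**Figure D3:**
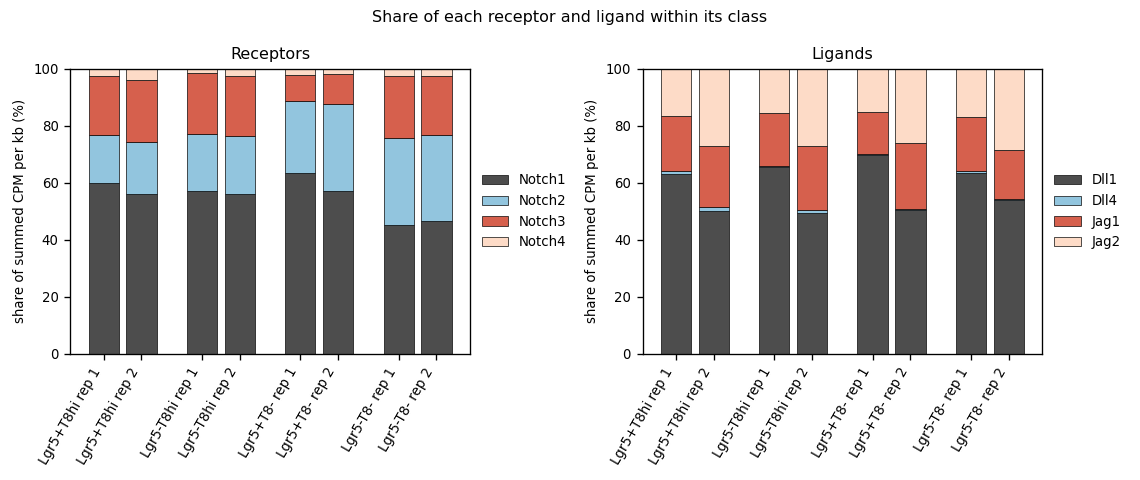
Share of each receptor and each ligand in the summed CPM per kb of its class (vertical axes, percent) in each of the 8 libraries. The Notch3 segment is 8.90 and 10.5% in the Lgr5+T8- libraries and 20.7 to 21.9% in the other 6, while Dll1 is the largest ligand segment in every library.

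Of the ligands, Dll1 (Entrez 13388, chr17:15367354-15376932), known for its expression in basal and stem-like mammary cells, led in every group and was lowest in Lgr5+T8hi. Its level was 409 and 321 CPM in Lgr5+T8hi, 493 and 343 CPM in Lgr5-T8hi, 580 and 351 CPM in Lgr5+T8- and 526 and 455 CPM in Lgr5-T8-. Batch 2 was lower in every group, so the groups overlapped, and within each batch Lgr5+T8hi was the lowest. The Tspan8 effect was -0.29 ± 0.09 on the log2 scale (SE, edgeR adjusted p = 0.04032), with -0.30 in batch 1 and -0.27 in batch 2. This call was lost in 6 of 8 fits with a library left out, at up to an edgeR adjusted p of 0.2351, and held without Lgr5-T8- replicate 1 or Lgr5+T8- replicate 2. Of the 10 basal markers 8 had lower and 2 had higher estimates in T8hi cells, and 6 passed as lower, where 5.52% of all genes did. Their sums were 16512 to 19754 CPM in T8hi against 21627 to 25036 CPM in T8- libraries, and their part in the result was not tested.

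Jag2 (Entrez 16450, chr12:112907803-112929812) was ordered by batch more than by gate. It was at 128 and 208 CPM in Lgr5+T8hi, 139 and 222 CPM in Lgr5-T8hi, 149 and 215 CPM in Lgr5+T8- and 167 and 285 CPM in Lgr5-T8-. Every batch 2 library lay above every batch 1 library, and Lgr5-T8- was the highest in both batches. The Tspan8 effect was -0.23 ± 0.07 (log2, SE, edgeR adjusted p = 0.04093). It too was lost in 6 of 8 fits with a library left out, at up to an edgeR adjusted p of 0.3001, and held without Lgr5-T8- replicate 1 or Lgr5+T8- replicate 2.

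Jag1 (Entrez 16449, chr2:137081451-137116520), a ligand of many epithelia, passed in none of the comparisons by edgeR with all 8 libraries. Its level ran from 198 and 219 CPM in Lgr5+T8hi and 226 and 251 CPM in Lgr5-T8hi to 199 and 260 CPM in Lgr5+T8- and 251 and 232 CPM in Lgr5-T8-. The groups overlapped. The Tspan8 effect was -0.08 on the log2 scale (95% interval -0.25 to 0.10, edgeR adjusted p = 0.589). Without Lgr5-T8- replicate 2 it passed as lower for the Lgr5 effect (edgeR adjusted p = 0.04253) and in Lgr5+T8hi against Lgr5-T8- (0.01907).

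Dll4 (Entrez 54485, chr2:119325784-119335666), the ligand of sprouting endothelium, lay above 26.7% of the genes tested per kb and was highest in Lgr5+T8hi. It was at 6.98 and 9.91 CPM there, at 2.72 and 6.31 CPM in Lgr5-T8hi, at 2.58 and 1.87 CPM in Lgr5+T8- and at 4.67 and 4.41 CPM in Lgr5-T8-. Both Lgr5+T8hi libraries were above the other 6, both Lgr5+T8- libraries were the lowest, and Lgr5-T8hi spanned Lgr5-T8-. Within Lgr5+ cells the T8hi level was 3.64-fold higher (log2 1.86 ± 0.35, SE, edgeR adjusted p = 0.01258). That call was lost without either Lgr5+T8hi library (0.0894 and 0.1256) or the second Lgr5+T8- library (0.067). Within Lgr5- cells the difference was -0.07 (95% interval -0.83 to 0.70, edgeR adjusted p = 0.9455). The interaction of 1.93 ± 0.48 missed the threshold (edgeR adjusted p = 0.1006) but passed with DESeq2 (adjusted p = 0.004013) and limma-voom (adjusted p = 0.03964). The averaged Tspan8 effect of 0.90 ± 0.24 (SE, edgeR adjusted p = 0.04288) was uneven over batches, with 0.32 in batch 1 and 1.44 in batch 2, and held in 2 of 8 fits, those without Lgr5-T8hi replicate 1 or Lgr5+T8- replicate 1.

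Endothelial markers were highest where Dll4 and Notch4 were. The 12 markers summed to 506 and 580 CPM in Lgr5+T8hi, 151 and 311 CPM in Lgr5-T8hi, 144 and 103 CPM in Lgr5+T8- and 180 and 203 CPM in Lgr5-T8-. In Lgr5+T8hi against Lgr5+T8-, 11 of the 12 were higher, where 9.44% of all genes passed in either direction. In Lgr5-T8hi against Lgr5-T8-, 1 of 12 was higher, near the 7.06% of all genes that passed. Dll4 equalled 1.38 to 2.59% of that sum and Notch4 1.21 to 2.81% over the 8 libraries. For both genes these percentages were lowest in the Lgr5+T8hi libraries, at 1.38 and 1.71% for Dll4 and 1.21 and 1.66% for Notch4. In the same comparison of Lgr5+T8hi with Lgr5+T8-, 5 of 8 immune, 8 of 9 fibroblast, 6 of 8 pericyte and 8 of 8 luminal progenitor markers were higher. The immune sum was 74.1 and 125 CPM in Lgr5+T8hi and 41.6 and 74.9 CPM in Lgr5+T8-. The part of RNA from any of these cells in the Dll4 and Notch4 differences was not tested.

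**Figure D4:**
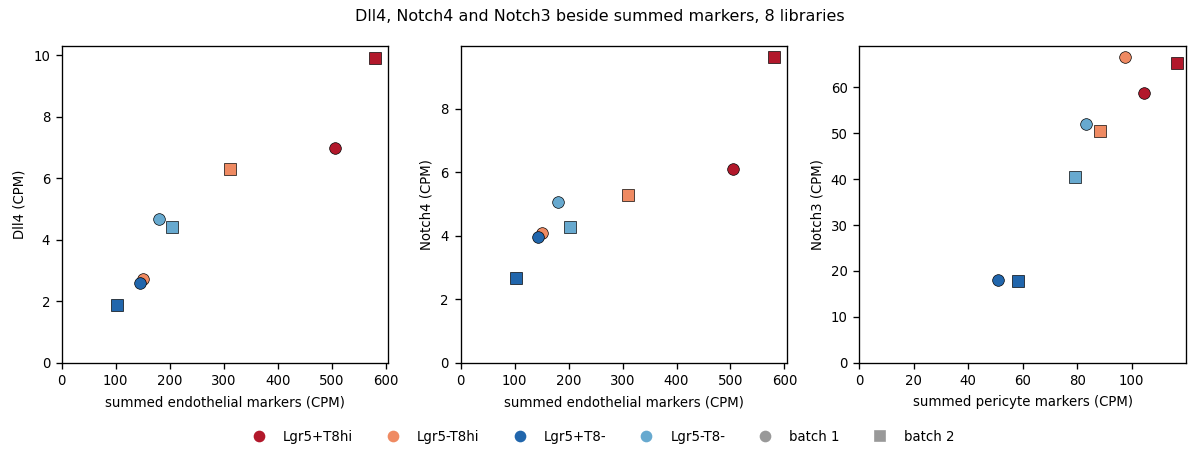
Dll4 and Notch4 against the summed CPM of 12 endothelial markers and Notch3 against that of 8 pericyte markers (both axes in CPM), 1 point per library, coloured by group and shaped by batch. The Lgr5+T8hi libraries, at endothelial sums of 506 and 580 CPM, lie at the upper right for Dll4 and Notch4, and the Lgr5+T8- libraries at the lower left for Notch3.

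Of the 2 target genes, Hey1 passed the Tspan8 test and Hes1 did not, and both were higher in Lgr5+T8- than in Lgr5-T8- cells. Hey1 (Entrez 15213, chr3:8663359-8667038), a repressor induced by Notch in many cell types, was lowest in Lgr5-T8-. It was at 21.5 and 26.8 CPM in Lgr5+T8hi, 23.7 and 26.1 CPM in Lgr5-T8hi, 20.1 and 21.4 CPM in Lgr5+T8- and 13.7 and 17.0 CPM in Lgr5-T8-. The 2 Lgr5-T8- libraries lay below the other 6, and the Lgr5+T8- libraries just under the 4 T8hi libraries. The Tspan8 effect was 0.46 ± 0.08 (log2, SE, edgeR adjusted p = 0.001501), with 0.44 and 0.47 in the 2 batches. Within Lgr5- cells it was 0.70 (edgeR adjusted p = 0.001581) and within Lgr5+ cells 0.21 (edgeR adjusted p = 0.2908), and the difference of the 2 did not pass (-0.49 ± 0.15, edgeR adjusted p = 0.1478). In the Lgr5- comparison 8 of 8 general luminal, 7 of 8 luminal progenitor and 6 of 9 fibroblast markers were higher in edgeR, and 1 of 9 fibroblast markers was lower. Of the endothelial and pericyte markers 1 of 12 and 0 of 8 passed, where 7.06% of all genes did. Under an unadjusted edgeR p of 0.05 were 1 and 2 of these (19.0% of all genes). DESeq2 called 1 and 0 of them and limma-voom 1 and 1. Hey1 was 0.905 to 1.10% of the general luminal sum in batch 1 and 1.57 to 1.72% in batch 2. It was 4.25 to 20.8% of the endothelial sum over the 8 libraries. The part of RNA from any of these cells in the Hey1 difference was not tested.

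Hes1 (Entrez 15205, chr16:30065357-30067796), the other target, differed more by batch than by gate. It was at 57.9 and 44.6 CPM in Lgr5+T8hi, 58.5 and 43.2 CPM in Lgr5-T8hi, 83.7 and 46.9 CPM in Lgr5+T8- and 52.1 and 41.8 CPM in Lgr5-T8-. Lgr5+T8- replicate 1 was the highest, and the groups overlapped. Its Tspan8 effect was -0.10 (log2, 95% interval -0.29 to 0.08, edgeR adjusted p = 0.4747). At the T8- gate it was higher in Lgr5+ cells by 0.44 ± 0.12 (log2, SE, edgeR adjusted p = 0.04272), with 0.68 in batch 1 and 0.17 in batch 2. The call held in 3 of 8 fits with a library left out, those without replicate 2 of Lgr5-T8hi, Lgr5+T8- or Lgr5-T8-, and it was lost with relative log expression scaling (0.05733) and with a stricter filter on low counts (0.06183).

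Across the Lgr5 gate, averaged over Tspan8 status, Notch3 was the 1 member of 10 to pass, where 9.09% of all genes did, 4.23% upwards and 4.86% downwards. By unadjusted p, 5 of 10 were under 0.05, where 22.3% of all genes were. The median log2 fold change of the 10 was -0.09, beside 0.01 for all genes. Outside Notch3 the largest estimates were -0.24 for Notch2, 0.23 for Hes1 and -0.20 for Jag2 (edgeR adjusted p = 0.1286, 0.1316 and 0.09546).

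Of the 6 pairs of groups, the most members passed between the double-positive and the double-negative cells. Between Lgr5+T8hi and Lgr5-T8-, 5 of 10 passed, beside 19.9% of all genes. Notch1 was higher by 0.77 (edgeR adjusted p = 0.0003537), Hey1 by 0.65 (edgeR adjusted p = 0.001193) and Notch3 by 0.43 (edgeR adjusted p = 0.0401) on the log2 scale. Dll1 was lower by 1.35-fold (edgeR adjusted p = 0.02348) and Jag2 by 1.34-fold (edgeR adjusted p = 0.007674). The calls of Notch1 and Hey1 held with each library left out. Those of the other 3 were lost without Lgr5+T8hi replicate 2, at 0.376 for Notch3, 0.09234 for Dll1 and 0.06387 for Jag2. Dll1 and Jag2 were also lost without Lgr5+T8hi replicate 1 (0.2605 and 0.1121), Notch3 and Dll1 without Lgr5-T8- replicate 2 (0.1945 and 0.1111), and Dll1 without Lgr5-T8hi replicate 1 (0.0546).

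Within Lgr5+ cells, 4 of 10 were higher in T8hi than in T8-, all 4 described already, Notch1, Notch3, Notch4 and Dll4, where 9.44% of all genes passed. Within Lgr5- cells 2 of 10 were higher in T8hi, Notch1 and Hey1, where 7.06% passed, and DESeq2 added Jag2 as lower (adjusted p = 0.03796). Between Lgr5+T8- and Lgr5-T8- cells 3 of 10 passed, where 8.86% of all genes did. Hey1 (log2 0.44, edgeR adjusted p = 0.02577) and Hes1 were higher in Lgr5+T8- and Notch3 was lower. The Hey1 call held without replicate 2 of Lgr5+T8hi, Lgr5-T8hi or Lgr5-T8- and was lost in the other 5 such fits, at up to 0.2389, and with DESeq2 (0.06415), where Dll4 passed as lower (0.04881). Lgr5-T8hi exceeded Lgr5+T8- in 2 of 10, Notch1 (log2 0.47, edgeR adjusted p = 0.02854) and Notch3 (log2 1.70, edgeR adjusted p = 0.0001751), where 4.30% passed. This Notch1 call was lost without either Lgr5-T8hi library (0.3513 and 0.07699) or Lgr5+T8- replicate 2 (0.253). Lgr5+T8hi and Lgr5-T8hi differed in 0 of 10 by edgeR, DESeq2 or limma-voom, with 2 of 10, Notch4 and Dll4, under an unadjusted p of 0.05, where 3.34% of all genes passed the adjusted test and 13.5% the unadjusted one.

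By these tests the order of the Notch1 means was Lgr5+T8hi at 201 CPM, Lgr5-T8hi at 187, Lgr5+T8- at 135 and Lgr5-T8- at 119 CPM, and the first pair and the last pair did not differ beyond their error. For Notch3 the order was Lgr5+T8hi at 62.0, Lgr5-T8hi at 58.6, Lgr5-T8- at 46.2 and Lgr5+T8- at 18.0 CPM, and of the neighbours the last pair passed. For Hey1 it was Lgr5-T8hi at 24.9, Lgr5+T8hi at 24.1, Lgr5+T8- at 20.7 and Lgr5-T8- at 15.4 CPM, and again of the neighbours the last pair passed. For Dll1 the order was Lgr5-T8- at 491, Lgr5+T8- at 465, Lgr5-T8hi at 418 and Lgr5+T8hi at 365 CPM, and no neighbours differed beyond their error.

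Batch was a source of difference of its own. Between batch 2 and batch 1, 32.9% of all genes passed, and so did 4 of the 10 members. Jag2 was higher in batch 2 by 0.67 ± 0.07 (log2, SE, edgeR adjusted p = 6.253e-05). Lower in batch 2 were Hes1 at -0.49 ± 0.08 (edgeR adjusted p = 0.001399), Dll1 at -0.45 ± 0.09 (edgeR adjusted p = 0.002152) and Notch1 at -0.27 ± 0.08 (edgeR adjusted p = 0.01689). For Jag2, Hes1 and Dll1 the batch difference was larger than any averaged gate effect on the same gene.

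Beyond the 10, a list of 61 other genes of the pathway was read, of which 57 were tested. In Tspan8hi cells 6 of them were higher and 2 lower, with a median log2 fold change of 0.02. In Lgr5+ cells 1 was higher and 2 were lower, and 1 gene passed the interaction. That makes 14.04% of the 57 for the Tspan8 effect, 5.26% for the Lgr5 effect and 1.75% for the interaction, beside 14.6%, 9.09% and 2.55% of all genes, so the list as a whole did not exceed the background, and the genes below are given singly. Of 3 tested ligands outside the 10, Dlk1, a non-canonical ligand, was higher in Tspan8hi cells (log2 0.87 ± 0.13, SE, edgeR adjusted p = 0.0008804) and its relative Dlk2 lower (-0.59 ± 0.15, edgeR adjusted p = 0.0202). The Dlk2 call was lost without replicate 1 of Lgr5-T8hi (0.0898) or replicate 2 of Lgr5+T8hi (0.1187) or of Lgr5+T8- (0.0876). Dlk2 was also lower in Lgr5+ cells (-1.04 ± 0.15, edgeR adjusted p = 0.0009076). Its level was 3.49 and 3.21 CPM in Lgr5+T8hi against 4.89 and 7.59 CPM in Lgr5-T8hi, and 3.53 and 5.58 CPM in Lgr5+T8- against 7.94 and 13.97 CPM in Lgr5-T8-. The Fringe glycosyltransferase Mfng, which tunes the response of receptors to ligands, was higher in Tspan8hi cells averaged over Lgr5 status (0.90 ± 0.17, edgeR adjusted p = 0.00427). It was the 1 of 5 glycosylation genes to pass, where 14.6% of all genes did. Mfng was highest in Lgr5+T8hi, at 3.11 and 4.31 CPM, against 1.57 and 2.53 CPM in Lgr5-T8hi. The Lgr5-T8hi and Lgr5-T8- groups overlapped. Within Lgr5- cells 0 of the 5 were under an unadjusted edgeR p of 0.05, where 19.0% of all genes were. For the interaction 0 of the 5 passed and 1 was under that unadjusted p.

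Few genes of the pathway's core passed, at or below the 14.6% of all genes. Of 10 genes for receptor cleavage Psen2, a catalytic subunit of gamma-secretase, was higher in Tspan8hi cells (log2 0.32 ± 0.09, SE, edgeR adjusted p = 0.03499), a call that held in 1 of 8 fits with a library left out, that without Lgr5-T8- replicate 2, and was lost with DESeq2 (adjusted p = 0.08655). Of 16 genes of the nuclear complex the acetyltransferase Kat2b was lower (-0.32 ± 0.06, edgeR adjusted p = 0.004799), a call lost without Lgr5-T8hi replicate 1 (0.09156). Rbpj itself was at 127 to 216 CPM and did not pass (0.08, edgeR adjusted p = 0.4651). Psen2 was at 12.1 and 12.9 CPM in Lgr5+T8hi and 8.19 and 9.49 CPM in Lgr5+T8-. The Lgr5- groups overlapped, at 10.1 and 11.1 CPM in Lgr5-T8hi and 8.61 and 10.7 CPM in Lgr5-T8-. Of the 10 cleavage genes 1 passed the T8hi comparison within Lgr5+ cells (9.44% of all genes) and 0 within Lgr5- cells (7.06%). Within Lgr5- cells 2 of the 10 were under an unadjusted edgeR p of 0.05, where 19.0% of all genes were. Of 13 genes for ligand endocytosis and receptor turnover 0 passed either gate's effect or the interaction in edgeR, with 2 of 13 at an unadjusted p under 0.05 in each (27.7%, 22.3% and 11.8% of all genes) and 0 by DESeq2 or limma-voom.

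Among the 10 tested genes of the Hes and Hey family and other targets, Heyl, Nrarp and Sox9 were higher in Tspan8hi cells, 3 of 10 where 9.13% of all genes were higher. Heyl, a relative of Hey1 known from mural cells, had the pattern of Notch3. It was at 5.28 and 5.29 CPM in Lgr5+T8hi, 7.08 and 5.19 CPM in Lgr5-T8hi and 6.12 and 4.81 CPM in Lgr5-T8-, but at 2.30 and 1.36 CPM in Lgr5+T8-. The 2 Lgr5+T8- libraries lay below the other 6, as they did for Notch3. The Tspan8 effect on Heyl was 0.85 ± 0.14 (log2, SE, edgeR adjusted p = 0.0018), the Lgr5 effect -0.89 ± 0.14 (edgeR adjusted p = 0.002044) and the interaction 1.38 ± 0.29 (edgeR adjusted p = 0.02904), the last of which held without the first Lgr5+T8- library or either Lgr5-T8- library and was lost in the other 5 fits, at up to 0.1783.

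Nrarp, a feedback inhibitor of Notch, was higher in Tspan8hi cells by 0.37 ± 0.08 (log2, SE, edgeR adjusted p = 0.01103), a call lost without Lgr5-T8hi replicate 1 (0.08032) or Lgr5+T8hi replicate 2 (0.05796). Its level was 24.8 and 14.2 CPM in Lgr5+T8hi, 27.1 and 13.7 CPM in Lgr5-T8hi, 20.6 and 10.7 CPM in Lgr5+T8- and 18.2 and 11.7 CPM in Lgr5-T8-. Within each batch both T8hi libraries were above both T8- libraries. Sox9, a transcription factor of luminal progenitors and stem-like cells, was higher both in Tspan8hi cells (0.39 ± 0.06, edgeR adjusted p = 0.001467) and in Lgr5+ cells (0.33 ± 0.06, edgeR adjusted p = 0.006549). The Lgr5 call was lost without either Lgr5-T8hi library (0.08214 and 0.05907). Sox9 ran from 258 and 180 CPM in Lgr5-T8- to 431 and 289 CPM in Lgr5+T8hi.

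**Figure D5:**
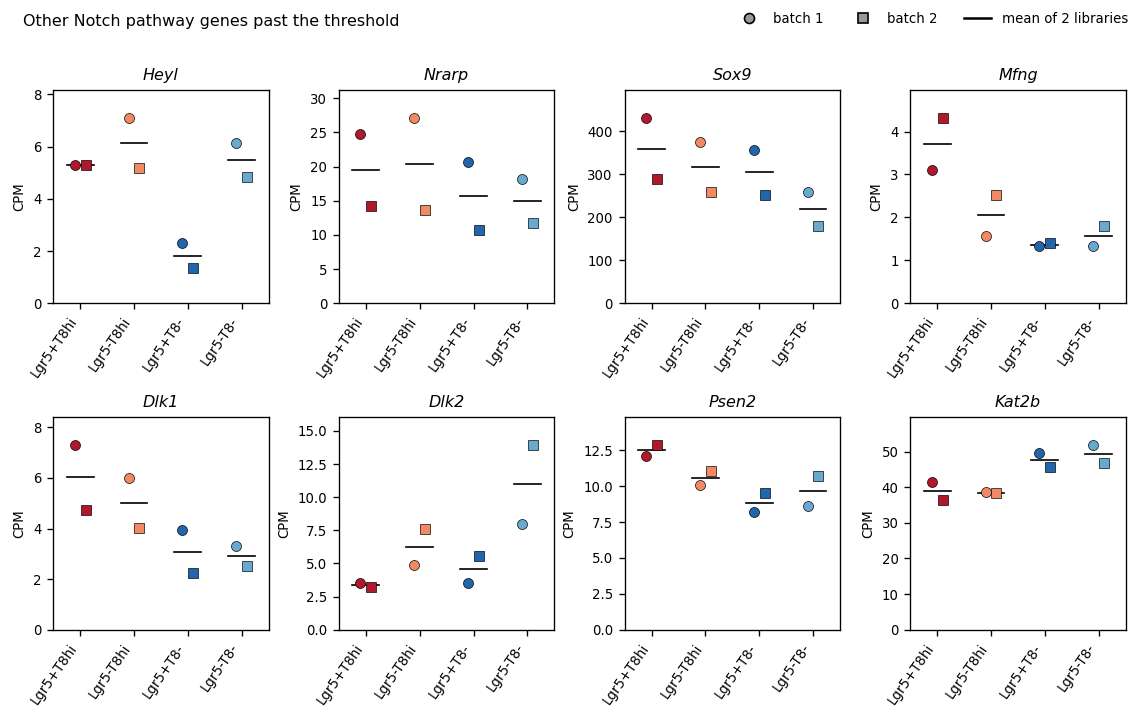
CPM of the 8 other pathway genes that passed the Tspan8 test (vertical axes from 0) in the 8 libraries by group, with circles and squares for the 2 batches and a bar for the mean of 2 libraries. Heyl is lowest in Lgr5+T8-, at 2.30 and 1.36 CPM, and Dlk2 is highest in Lgr5-T8-, at 7.94 and 13.97 CPM.

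The genes most like each member across the 8 libraries were found by Pearson's r of log2 CPM after each batch's mean was taken out, among 10553 named genes of at least 5 CPM. With 4 groups behind 8 points, high values arise easily, and r is given as a description. Notch3 was nearest to Kcne4 (r = 0.985), Serpine2 (r = 0.978) and Pdgfrb (r = 0.976), the last a receptor of pericytes and fibroblasts. Dll4 was nearest to Cldn5 (r = 0.994), Cd93 (r = 0.991) and Fgd5 (r = 0.991), genes known from endothelium. Notch4 was nearest to Lyz2, a myeloid gene (r = 0.982), then Ccdc88c (r = 0.970) and Ace (r = 0.966). Notch1 was nearest to Tyro3 (r = 0.981), Epb41 (r = 0.980) and Htra3 (r = 0.980), and Hey1 to Fgg (r = 0.991), Chaserr (r = 0.979) and Tmem45a (r = 0.976). Dll1 was nearest to Rusf1 (r = 0.994), Jag1 to Hsd17b7 (r = 0.994), Jag2 to Pigs (r = 0.983), Notch2 to Mga (r = 0.994) and Hes1 to Plk3 (r = 0.979).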

How the data were processed

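RNA-seq of 8 libraries, 4 sorted populations with 2 libraries each, was analysed. Each deposited table gives, per the file headers, a read count and a gene length for every Entrez gene, and the values are whole numbers without scaling. Named in the submitters' processing notes, without roles, are the build mm10 (GRCm38), featureCounts, CASAVA 1.8.2, limma 3.24.14 and edgeR 3.10.2. The aligner and any use of strand are not given in the sources used here, so overlapping or antisense genes are uncertain. Symbols, coordinates and promoters came from RefSeq for GRCm38.p6 by Entrez identifier, which matched 25260 of 27164 genes.

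All libraries entered 1 fit with edgeR 4.0.16 in R 4.3.3 (TMM, filterByExpr with a minimum count of 10, robust quasi-likelihood F-test, group plus batch, 3 residual degrees of freedom). The script was tested on simulated data. Tests were two-sided, with Benjamini-Hochberg adjustment over the 16526 genes tested in each comparison and a threshold of 0.05, and intervals are 95% intervals of the fit. The fit gave the effect of each gate, Tspan8 and Lgr5, their interaction and the 6 pairs of groups. Same-numbered libraries shared their deviations from the group means (6 pairs of groups, r of 0.415 to 0.55 across genes) and the labels give the number as the batch, so batch was kept as a block. Replicates differed beyond sampling noise (chi-square per degree of freedom of 36.0 to 57.3 within groups). The 2 libraries of a group are in different batches, so this cannot show that they came from different animals. They were counted separately. Alternatives were no block, relative log expression (RLE) scaling, no filter, a stricter filter (4 or more libraries with 1 CPM), limma-voom (limma 3.58.1), DESeq2 1.42.0 and each library left out.

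The 10 members, the pathway list and the marker lists were chosen with earlier results of these data known. The rule for other names was to take every gene of the pathway list past the threshold in the Tspan8 effect, the Lgr5 effect or the interaction, or the 8 with the smallest adjusted p in a comparison where more passed. For likeness the 3 genes with the highest r were taken for each member, among tested genes with symbols that are not predicted or clone names. For 5 members the text gives the first of the 3. Lgr5 and Tspan8 were named as the sorted genes. Rbpj was named outside this rule, as the DNA-binding partner of the pathway.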

Additional observations from a re-analysis of the deposited data

Results flagged for a closer look

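The Tspan8 difference of Notch3 differed between Lgr5+ and Lgr5- cells by a test of the difference itself. The interaction was 1.45 on the log2 scale (edgeR adjusted p = 0.003787), from 1.79 within Lgr5+ cells and 0.34 within Lgr5- cells, and both batches showed its direction. It held with each of the 8 libraries left out and missed the threshold without batch in the model (edgeR adjusted p = 0.1372). Groups of 2 libraries are too small for a test of single libraries that stand apart.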

How the results depend on the processing

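The number of members past the threshold moved both with batch in the model and with single libraries. With no replicate block, 1 member passed the Tspan8 effect, 0 the Lgr5 effect and 0 the interaction in edgeR (6, 1 and 1 with the block). Between T8hi and T8- they were 2 within Lgr5+ and 0 within Lgr5- cells, and for other pairs of groups 1 for Lgr5+T8- against Lgr5-T8-, 0 for double-positive against double-negative and 1 for Lgr5-T8hi against Lgr5+T8-. Over all genes 705, 219 and 1 passed the 3 effects without the block, against 2421, 1502 and 421 with it, and of the other pathway genes 0, 0 and 0 passed, against 8, 3 and 1. Where 0 members passed, 1 (Lgr5 effect), 3 (interaction), 2 (T8hi against T8- within Lgr5- cells) and 4 (double-positive against double-negative) were under an unadjusted p of 0.05, and where 0 of the other pathway genes did, 6, 3 and 2 were. DESeq2 and limma-voom each called 2 members for the interaction, Notch3 and Dll4. The Tspan8 calls of Dll1 and Jag2 were lost when 4 or more libraries had to reach 1 CPM (edgeR adjusted p = 0.05645 and 0.0542), and that of Dll4 with no filter (0.06862). The causes were not tested.

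With each library left out in turn, 3 to 5 members passed the Tspan8 effect, 1 to 4 the Lgr5 effect and 1 to 2 the interaction. Between T8hi and T8- the counts were 1 to 5 within Lgr5+ and 1 to 2 within Lgr5- cells, and for other pairs 0 to 1 for Lgr5+T8hi against Lgr5-T8hi, 1 to 4 for Lgr5+T8- against Lgr5-T8-, 3 to 7 for double-positive against double-negative and 1 to 2 for Lgr5-T8hi against Lgr5+T8-. Over all genes they were 1428 to 3374 for Tspan8, 726 to 2618 for Lgr5 and 119 to 584 for the interaction, and over the other pathway genes 4 to 13, 2 to 8 and 0 to 1. Estimates that did not pass changed sign for the Tspan8 effect of Jag1 (-0.16 to 0.033) and Hes1 (-0.21 to 0.044), the Lgr5 effect of Notch4 (-0.13 to 0.31) and Dll4 (-0.32 to 0.29), and the interaction of Notch1 (-0.23 to 0.13), Dll1 (-0.25 to 0.16) and Jag1 (-0.26 to 0.055). A group left with 1 library was assumed to vary like the others. Notch4 and Dll4 had 47 to 262 counts in a library.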
